A study of Mus musculus with 6 samples.

Results

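mir-144, mir-451a, mir-486a and mir-486b are miRNAs of the red cell lineage. They were taken by name from the authors' table of miRBase precursor entries, and all 4 names were found among its 1006 entries. An entry counts the reads matched to 1 precursor, so both arms of a miRNA fall into the same entry. The antisense partner of mir-451a, mir-451b, is described beside them.

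Small RNA was sequenced from 6 libraries, each made from 90 ng of total RNA. Of these, 1 library was from mouse primary osteoblasts (OB), 1 from mouse primary bone marrow cells (BM), 2 from Myo-EVs and 2 from FFSS-Myo-EVs. Myo-EVs are the extracellular vesicles that C2C12 cells, a mouse myoblast line, release into medium whose serum had been depleted of vesicles. FFSS-Myo-EVs came from C2C12 cells under fluid flow shear stress (FFSS), applied by an orbital shaker in the 48 hr of culture. The labels give 81.25% of the background as C57BL/6J and the other 18.75% as 129/SvJ for all libraries, the C2C12 ones included, and an age of 8 to 10 weeks for OB and BM. The methods describe BM from the tibiae of 1 mouse and, unlike the labels, OB from pooled calvariae of neonatal mice. The growth protocol in the labels mentions vitamin D and dexamethasone rather than FFSS, and whether either was added to these cultures is not stated. Culture with M-CSF and removal of red cells are not described for the BM library. OB and BM have 1 library each, so their levels carry a counting error and no replicate error. The vesicle libraries are numbered replicates without a statement that they came from separate cultures, so p-values cover at most the spread between these libraries, which may be technical. In the main test this spread was pooled over entries and is not that of a single entry.

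Red cell precursors make large amounts of mir-144 and mir-451a from 1 transcript that is driven by the erythroid factor GATA1. mir-451a is the known exception among miRNAs in that its precursor is cut by Argonaute 2 and not by Dicer, and it is one of the most abundant miRNAs of the mature red cell. It is also a common component of serum. mir-486 lies in the gene of the red cell membrane protein ankyrin 1, is abundant in red cells and plasma, and is made in heart and skeletal muscle as well.

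On GRCm38, the mouse build that the labels name as mm10, the mir-144 hairpin lies on chromosome 11 from 78073005 to 78073070 on the plus strand. The mir-451a hairpin follows 99 bases further on the same strand, from 78073170 to 78073241. Of the protein-coding genes looked up in GENCODE M21, Eral1, on the minus strand, has its end 134 bases beyond mir-451a. Flot2, on the plus strand, ends 12570 bases before mir-144. The mir-451b hairpin has the same 72 bases of chromosome 11 on the minus strand. The mature sequences, from RefSeq on GRCm38.p6, are shown because they decide which reads can be told apart, and the capitals mark the seed (bases 2 to 8).

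mmu-miR-144-5p: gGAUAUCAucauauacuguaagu
mmu-miR-144-3p: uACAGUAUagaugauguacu
mmu-miR-451a: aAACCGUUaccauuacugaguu
mmu-miR-451b: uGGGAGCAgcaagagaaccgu

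The 4 seeds differ from each other, and no other mature miRNA in the table has any of them. None of the 4 mature sequences occurs in another of the 1005 hairpins there. The place of miR-451a in its hairpin is shown next, with the mature sequence in capitals. It runs from base 17 to base 38 of 72 and thus passes the middle of the hairpin, base 36, into the 3′ arm.

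Mir451a hairpin: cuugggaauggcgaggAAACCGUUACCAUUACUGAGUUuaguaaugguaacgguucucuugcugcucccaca

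Because the hairpin is nearly a palindrome, the minus strand holds a close copy of miR-451a. Bases 17 to 38 of the mir-451b hairpin differ from miR-451a at 4 of 22 bases, in capitals below, and share an unbroken run of 16.

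mmu-miR-451a: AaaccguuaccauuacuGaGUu
Mir451b hairpin, bases 17 to 38: GaaccguuaccauuacuAaACu

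mir-486a and mir-486b form a pair of the same kind. The mir-486a hairpin (gene Mir486) lies on chromosome 8 from 23142555 to 23142682 on the plus strand, and the mir-486b hairpin (gene Mir3107) lies inside it from 23142573 to 23142662 on the minus strand. Both lie within Ank1 and overlap none of its exons. Their main mature products are known to be the same, so a read cannot be given to one of them, and how the authors counted reads that match several precursors is not stated. The 2 entries are therefore not independent measurements, although the counts and shares of members list each of them.

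The total count was 5181296 in OB, 6092460 in BM and from 2414132 to 3029524 in the vesicle libraries. Levels are given as the authors' normalized expression value, which is the count times 1 constant per library. A level of 3 counts corresponds to 1.66 in OB, 1.19 in BM and 2.99 to 3.59 in the vesicle libraries. The 95% intervals are exact (Clopper-Pearson for a share, conditional binomial for a ratio), and cover the error of counting alone, since amplified reads that carry no molecular identifier are not independent molecules. Marker miRNAs of the labelled cells were compared. The 5 leukocyte entries (mir-223, mir-142a, mir-142b, mir-150 and mir-342) summed to 32941.1 in BM, 742.2 in OB and 67.1 to 90.8 in the vesicles. The 7 mesenchymal entries (of mir-199, mir-214, mir-143 and mir-145) summed to 22199.7 in BM, 536440.8 in OB and 335152.1 to 437743.6 in the vesicles. mir-206, a miRNA of skeletal muscle, was at 1968.5 to 2610.0 in the vesicles, 91.7 in OB and 7.9 in BM.

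**Figure D1:**
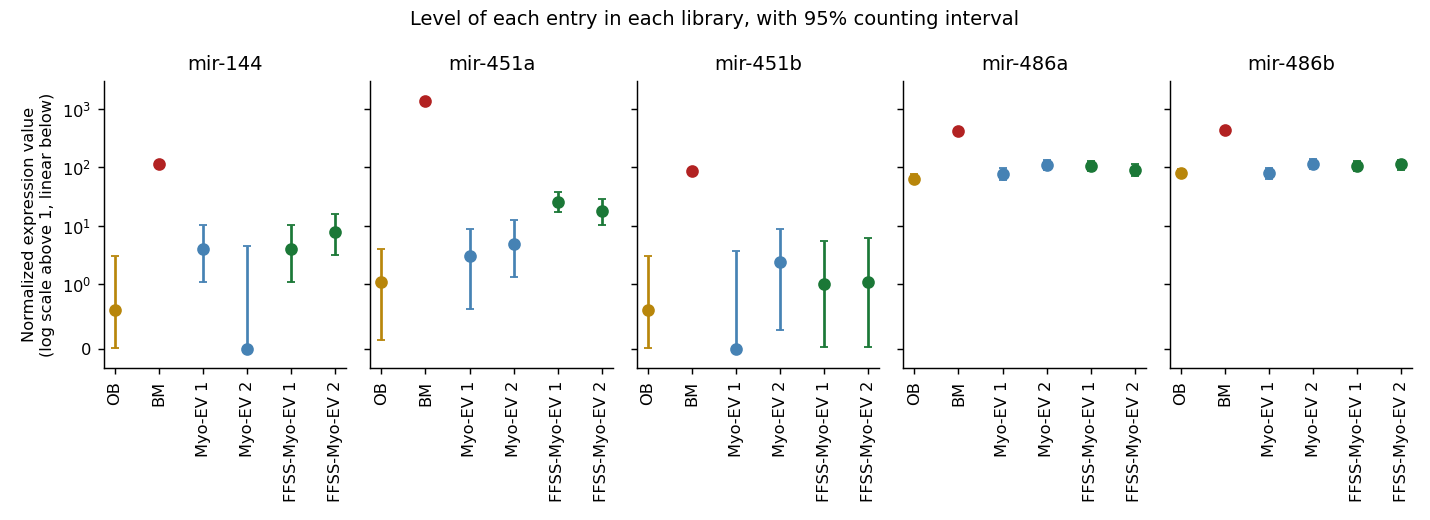
Normalized expression value (vertical axis, logarithmic above 1 and linear below) of 5 entries in the 6 libraries (horizontal axis), with bars for the 95% counting interval. BM is the highest library in every panel, and the vesicle libraries lie far below it for mir-144, mir-451a and mir-451b and less far for the mir-486 pair.

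All 4 erythroid miRNAs were highest in BM. Their counts together made up 50.8 of each 1000000 counts in OB, 56.4 to 79.5 in the vesicle libraries and 976.8 in BM. Reads that match both mir-486 entries may be in these sums more than once. BM was the highest library for 30.7% of the 443 entries with a mean of at least 10 over the 6 libraries, and more than 2 times every other library for 13.8% of them, which also held for 4 of the 4 members. mir-144 reached this mean through BM alone, so that it had to differ there. In bulk RNA, a smaller number of red cell precursors and less of the miRNA per cell cannot be told apart.

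The BM level of mir-451a was 1385.8 (3489 counts, 95% interval 1340 to 1433). OB had 1.1 (2 counts, 0.134 to 3.99). The Myo-EV libraries had 3.0 and 4.8 (3 and 4 counts), and the FFSS-Myo-EV libraries had 25.9 and 17.7 (26 and 16 counts). It was thus well measured in BM, near 3 counts in OB and Myo-EVs, and above that in both FFSS-Myo-EV libraries. BM was 1255 times OB (347.1 to 10360) and 105.7 times the 4 vesicle libraries (79.8 to 143.2). Without the first FFSS-Myo-EV library, the latter ratio was 164.7. When 1 was added to each value, the ratio of BM to OB was the highest of the 443 entries, against a median of 1.16. By count, mir-451a ranked 94 of 1006 entries in BM and 554 in OB, and from 275 to 486 in the vesicles.

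mir-144 was also highest in BM, at a lower level. BM had 116.0 (292 counts, 103.1 to 130.1) and OB 0.6 (1 count, 0.0140 to 3.08). Myo-EVs had 4.0 and 0.0 (4 and 0 counts), and FFSS-Myo-EVs had 4.0 and 7.8 (4 and 7 counts). The 0 counts in the second Myo-EV library allow a value of up to 3.59 when taken as 3 counts, and up to 4.42 by the exact interval. BM was 210.0 times OB (37.4 to 8323) and 28.9 times the vesicles (17.2 to 52.3). Myo-EVs were 3.96 times OB (0.391 to 194.8) and FFSS-Myo-EVs 10.4 times OB (1.52 to 449.6), both against 1 count in OB. The interval between the vesicle groups, 0.783 to 11.4 for FFSS-Myo-EVs over Myo-EVs, included 1.

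mir-451b was also a BM entry, with a value of 86.6 in BM (218 counts), 0.6 in OB (1 count) and 0.0 to 2.4 in the vesicles (0, 2, 1 and 1 counts). In BM, mir-451a had 16.0 counts for each count of mir-451b (14.0 to 18.4). Given the shared run of 16 bases and the unstated number of mismatches allowed, reads of the minus strand and variant reads of miR-451a cannot be told apart in this entry.

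The mir-486 pair differed less between the libraries. For mir-486a, BM had 421.4 (1061 counts, 396.4 to 447.5) and OB 64.1 (116 counts, 52.9 to 76.8). Myo-EVs had 76.3 and 110.2 (76 and 92 counts), and FFSS-Myo-EVs had 104.6 and 90.8 (105 and 82 counts). For mir-486b, BM had 440.5, OB 79.5, the Myo-EV libraries 79.3 and 115.0, and the FFSS-Myo-EV libraries 104.6 and 111.9. The pair was therefore present in every library well above 3 counts. For mir-486a, BM was 6.58 times OB (5.43 to 8.04) and 4.44 times the vesicles (3.93 to 5.02), and for mir-486b the ratios were 5.54 and 4.32. The number of mir-486b counts for each mir-486a count lay between 1.00 and 1.24 in the 6 libraries, and each interval included 1.

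BM was more than 10 times every other library for mir-144 and mir-451a, which holds for 3.84% of the 443 entries, and not for the mir-486 pair. Since mir-144 is among these entries through BM alone, this share cannot serve as its background. The ratios depend on the scale. The BM library gave 44.9% of its counts to mir-21a, against 20.2% to 23.3% in the other 5 libraries, and with mir-21a left out of the totals BM was 183.2 times the vesicles for mir-451a, 50.1 times for mir-144, 7.69 times for mir-486a and 7.49 times for mir-486b. On the same scale BM was 2110 times OB for mir-451a, 353.2 times for mir-144, 11.1 times for mir-486a and 9.32 times for mir-486b. Under all 3 other scalings tried, the 4 members were still highest in BM.

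**Figure D2:**
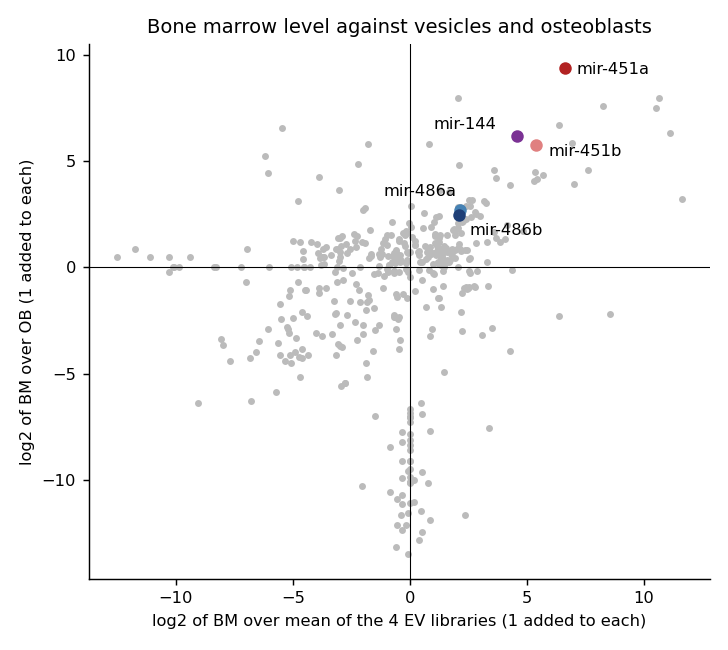
Each point is 1 of the 443 entries with a mean of at least 10, with log2 of BM over the mean of the 4 vesicle libraries on the horizontal axis and log2 of BM over OB on the vertical axis, 1 added to each value. mir-451a has the highest position on the vertical axis, mir-144 and mir-451b lie near each other in the upper right, and the mir-486 pair lies closer to the centre.

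Levels of the vesicles and of OB were compared in the same way. OB was below the lowest vesicle library for 2 of the 4 members, mir-451a and mir-486a, and for 45.8% of the 443 entries. Over the 4 vesicle libraries together, mir-486a was 1.48 times OB (1.20 to 1.84) and mir-486b 1.28 times OB (1.06 to 1.56). With median-of-ratios scaling the ratios were 1.17 (0.943 to 1.45) and 1.01 (0.830 to 1.23), and both intervals included 1. The lowest vesicle value of mir-486b, 79.3, was just under its OB value of 79.5, so the groups were not separate. For mir-451a the vesicles were 11.9 times OB (3.12 to 100.8), with 2 counts in OB. Taken by group, Myo-EVs were 3.46 times OB (0.659 to 34.1), an interval that included 1, and FFSS-Myo-EVs were 19.9 times OB (5.19 to 170.1).

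Ratios within a library do not depend on the scale between libraries, and they set BM apart from the other 5. In BM, mir-451a made up 58.6% of the counts of the 4 members, mir-486a 17.8%, mir-486b 18.6% and mir-144 4.91%. If reads were counted in both mir-486 entries, which is not known, the shares of mir-451a and mir-144 in each library are too low. In OB, mir-451a made up 0.761% and the mir-486 pair 44.1% and 54.8%. In Myo-EVs, mir-451a made up 1.85% and 2.08%, and in FFSS-Myo-EVs 10.8% and 7.77%. mir-451a was therefore the main member only in BM among these 6 libraries, and in the other 5 each mir-486 entry had more counts than it.

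**Figure D3:**
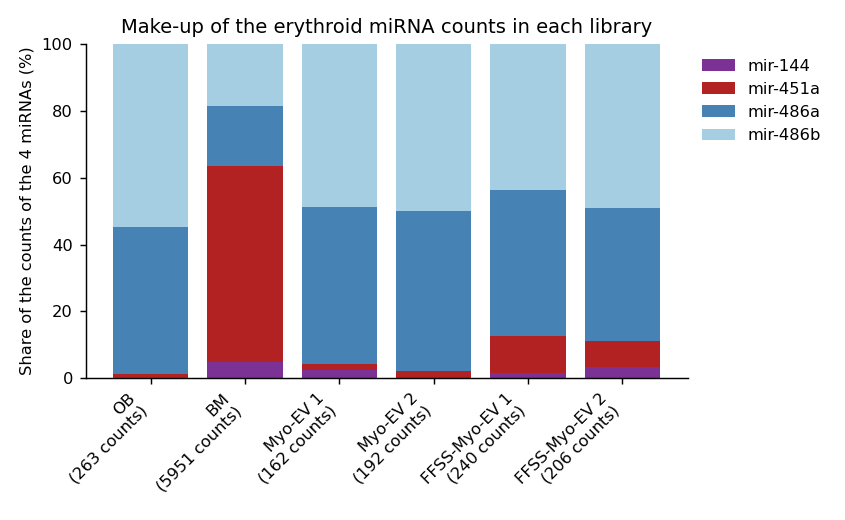
Stacked bars give the percentage of the summed counts of mir-144, mir-451a, mir-486a and mir-486b in each of the 6 libraries, with the summed count below each bar. mir-451a takes 58.6% in BM, 10.8% and 7.77% in FFSS-Myo-EVs and at most 2.08% elsewhere. Reads that match both mir-486 entries may be counted more than once.

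The partners of 1 transcript, mir-451a and mir-144, stood at 11.9 counts of mir-451a for each of mir-144 in BM (10.6 to 13.5). With the counts of all vesicle libraries summed, the ratio was 3.27 (1.80 to 6.27, 49 and 15 counts), below the BM interval. Single libraries varied, with 6.5 (2.26 to 25.6) and 2.29 (0.890 to 6.57) in FFSS-Myo-EVs, and the first of these intervals includes the BM ratio. The first Myo-EV library had 0.75 (0.110 to 4.43), and the second had 4 and 0 counts. Summed by group, the ratio was 3.82 in FFSS-Myo-EVs (1.93 to 8.22) and 1.75 in Myo-EVs (0.445 to 8.15), which overlap. OB had too few counts, 2 and 1, to give a ratio. For each count of mir-451a there were 0.304 counts of mir-486a in BM, 58.0 in OB (15.7 to 484.6), 24.0 in Myo-EVs (11.4 to 60.6) and 4.45 in FFSS-Myo-EVs (3.17 to 6.38).

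The effect of FFSS on the members was tested on the counts of the 4 vesicle libraries with edgeR over the 354 entries with a mean of at least 10. Of the 4 members, mir-451a, mir-486a and mir-486b were tested, and mir-144, with a mean of 3.95, was not. mir-451a rose and the mir-486 pair did not pass the test. Of all tested entries, 12.1% were higher and 18.4% lower at an adjusted p under 0.05, together 30.5%, so 1 call among 3 members, or among 2 with the mir-486 pair summed, is no result about the members.

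Summed over each pair of libraries, Myo-EVs had 7 counts of mir-451a and FFSS-Myo-EVs had 42. The normalized expression value was 3.9 ± 1.3 (SD, n = 2) in Myo-EVs and 21.8 ± 5.8 (SD, n = 2) in FFSS-Myo-EVs. The groups did not overlap, and FFSS-Myo-EVs were the higher one, which was so for 36.7% of the tested entries. The ratio from the summed counts was 5.76 (2.57 to 15.2 from counting error), and the fitted difference was 2.36 on the log2 scale (standard error 0.52; edgeR, adjusted p = 6.79e-05). It was second of the 354 entries by log2 fold change, below mir-703. This place is no support for the rise, since mir-451a passed the filter only through FFSS-Myo-EVs. With 2 libraries against 2, an exact permutation test cannot give a two-sided p below 0.333, the value it gave here.

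mir-451a passed the filter only through FFSS-Myo-EVs, so that an entry of this level that was kept had to differ. With no filter on low values, the difference was 2.31 (standard error 0.55; edgeR, adjusted p = 0.000611), where 4.82% of 893 entries were higher. The call depended on single libraries. Without the first FFSS-Myo-EV library, mir-451a fell below the filter, and with no filter the log2 fold change was 1.97 with an adjusted p of 0.0845 in edgeR's test. Without the first Myo-EV library, the log2 fold change was 2.04 and the adjusted p in edgeR's test was 0.0517 with the filter and 0.0134 without it. DESeq2 put it at 2.41 (standard error 0.89, unadjusted p = 0.00670) and gave no adjusted p for this entry. The level of mir-451a in FFSS-Myo-EVs remained low, and BM was 62.9 times as high (46.4 to 87.5).

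**Figure D4:**
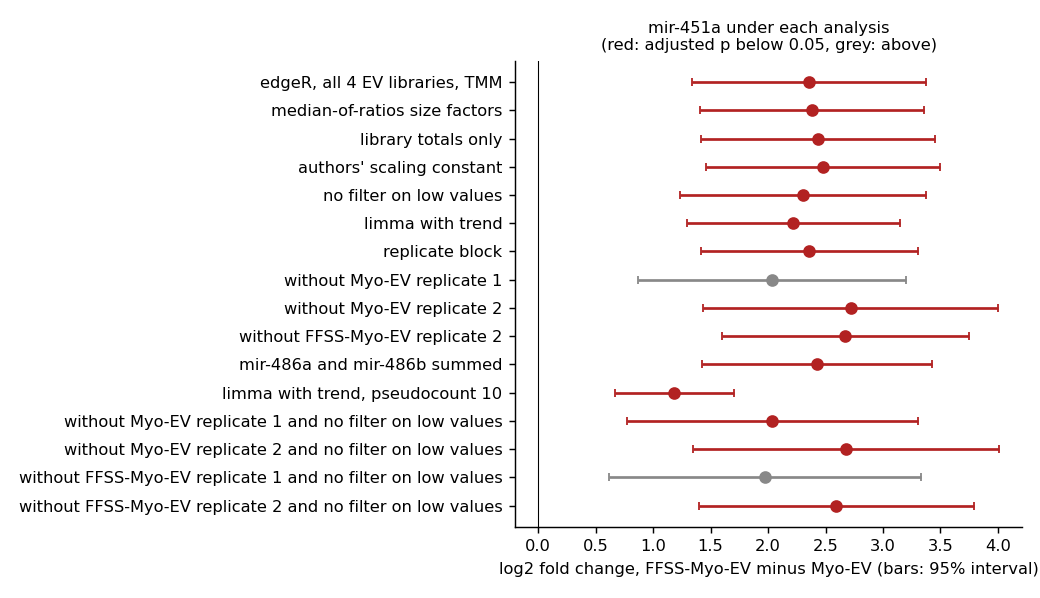
Log2 fold change of mir-451a in FFSS-Myo-EVs over Myo-EVs (horizontal axis) under each analysis with a standard error and an adjusted p (vertical axis). Bars give the 95% interval from the standard error. Red points have an adjusted p under 0.05 and grey points do not. DESeq2, which gave no adjusted p, is not shown. The fold change lies between 1.18 and 2.72 throughout, and the 2 grey points leave out the first Myo-EV or the first FFSS-Myo-EV library.

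For mir-486a the value was 93.2 ± 24.0 (SD, n = 2) in Myo-EVs and 97.7 ± 9.8 (SD, n = 2) in FFSS-Myo-EVs, and the libraries of the 2 groups overlapped. The log2 fold change was -0.04 with TMM scaling, 0.03 with library totals and 0.08 with the authors' scaling, and the standard error with TMM was 0.28 (edgeR, adjusted p = 0.942). The 95% interval, from -0.58 to 0.50, leaves room for a change of about that size in either direction. For mir-486b the value was 97.2 ± 25.2 (SD, n = 2) and 108.2 ± 5.2 (SD, n = 2), with a fitted log2 difference of 0.04 (standard error 0.27; edgeR, adjusted p = 0.935) and an interval from -0.48 to 0.57. The spread of the pair, whose entries are not independent, came mostly from Myo-EVs. With the authors' scaling, the first library was 0.692 times the second for mir-486a (0.504 to 0.949) and 0.690 times for mir-486b (0.506 to 0.939). With mir-21a left out of the totals, the ratios were 0.717 (0.522 to 0.982) and 0.714 (0.524 to 0.972). TMM scaling, with factors of 0.936 and 1.012 for these libraries, brings them closer, and no counting interval was made with it.

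mir-144 had 4 counts in Myo-EVs and 11 in FFSS-Myo-EVs, and the groups overlapped. With no filter, mir-144 differed by 1.19 on the log2 scale (standard error 0.90; edgeR, adjusted p = 0.588). The interval, from -0.58 to 2.96, included both 0 and the difference of mir-451a. Without the first Myo-EV library the value for mir-144 was 5.40 (edgeR, adjusted p = 0.0735), with 0 counts left in Myo-EVs, and without the second it was 0.38. mir-451b had 2 counts in each group.

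Entries known from blood and serum were examined beside the rise of mir-451a. Of the 5 leukocyte entries, 3 (mir-223, mir-142a and mir-142b) had both FFSS-Myo-EV libraries above both Myo-EV libraries. This was so for 36.7% of the tested entries, but all 3 lay below the filter. The share among entries of so low a level was not computed. The sum of the 5 was 67.1 to 75.3 in Myo-EVs and 80.8 to 90.8 in FFSS-Myo-EVs, most of it mir-342. mir-223, the main miRNA of granulocytes, had values of 1.0 and 0.0 in Myo-EVs, against 7.0 and 5.5 under FFSS, and mir-142b was at 0 in both Myo-EV libraries and at 3.0 and 7.8 in FFSS-Myo-EVs. Only mir-342 passed the filter, and it was not called (log2 fold change -0.20). With no filter, the adjusted p in edgeR's test was 0.0758 for mir-223, 0.0364 for mir-142b, 0.393 for mir-142a and 0.896 for mir-150. The value for mir-142b rests on 3 and 7 counts in FFSS-Myo-EVs.

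Of the 2 entries of platelets and endothelium, mir-126a was at 39.1 and 22.8 in Myo-EVs and at 100.6 and 84.2 in FFSS-Myo-EVs. In log2 terms it rose by 1.43 (standard error 0.33; edgeR, adjusted p = 0.000162), and mir-126b had at most 1.1 in a vesicle library. The sum of the 2 was 22.8 to 39.1 in Myo-EVs and 85.3 to 100.6 in FFSS-Myo-EVs. Of the 4 entries of liver and serum, 3 were higher in both FFSS-Myo-EV libraries, against the same 36.7%, and the sum of the 4 was 356.3 to 413.3 in Myo-EVs and 469.5 to 471.1 in FFSS-Myo-EVs. mir-122, the main miRNA of hepatocytes and a component of serum, was at 6.0 and 4.8 in Myo-EVs and at 17.9 and 15.5 in FFSS-Myo-EVs. With a mean of 5.4 in Myo-EVs and 16.7 in FFSS-Myo-EVs, mir-122 was kept by the filter only because of FFSS-Myo-EVs. A kept entry of this level therefore had to differ. In log2 terms mir-122 differed by 1.47 (standard error 0.50; edgeR, adjusted p = 0.0132). With no filter it differed by 1.42 and was not called (edgeR, adjusted p = 0.0619). The other 3, mir-192, mir-194-1 and mir-194-2, were not called with or without the filter. mir-122 was at 3.9 in OB and 2.4 in BM, below both FFSS-Myo-EV libraries. The part of red cell, leukocyte, serum or endothelial RNA in the rise of mir-451a was not tested.

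None of the red cell companions was called higher beside mir-451a. These are 13 entries of miRNAs that are abundant in red cells but are also made in many other cells, and 12 of them were tested. Among these, mir-25 (log2 fold change -0.36) and mir-185 (-0.33) were lower. Of all tested entries, 12.1% were higher and 18.4% lower, so these calls are no result about the companions. The median log2 fold change was 0.04, against -0.02 over all 354 entries. The most abundant companions were mir-92a-1, at 8807.9 in BM and 10117.4 to 12425.9 in the vesicles, mir-182, at 38.1 in BM and 6621.2 to 8795.9 in the vesicles, mir-25, and mir-183, at 27.8 in BM and 2483.5 to 3602.3 in the vesicles. BM was the highest library for 7 of the 13, so these miRNAs did not share 1 pattern. The share was 30.7% over the 443 entries with a mean of at least 10, which leave out mir-363. mir-363, which is transcribed with a copy of mir-92a, was at 28.2 in BM and at 0 in the other 5 libraries.

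Of the 5 entries known to fall as red cells mature, mir-150, mir-155, mir-221, mir-222 and mir-223, BM was the highest library for 4, all but mir-155. BM was highest for 30.7% of the 443 entries. Of the 3 tested, mir-155 (log2 fold change 0.70) and mir-221 (0.51) were higher in FFSS-Myo-EVs and mir-222 (0.30, adjusted p = 0.0571 in edgeR's test) did not pass. Among all tested entries, 12.1% were higher.

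Since mir-486 is also made in muscle, the 9 muscle entries were set beside it. Of the 4 tested, mir-133a-1, mir-133a-2 and mir-133b were lower in FFSS-Myo-EVs, with log2 fold changes of -1.49, -1.92 and -1.75. mir-206 (0.15) did not pass, and 18.4% of all tested entries were lower. mir-133a-1 and mir-133a-2, copies of mir-133a, passed the filter only through Myo-EVs, so that a kept entry of this level had to differ. With no filter, they differed by -1.54 and -1.975 (edgeR, adjusted p = 0.0169 and 0.0026). mir-133b was at 45.2 and 35.9 in Myo-EVs and at 13.9 and 12.2 in FFSS-Myo-EVs. The main miRNA of mature muscle, mir-1a, had at most 6.0 in a vesicle library in either of its entries, mir-1a-1 and mir-1a-2, and mir-1b had at most 5.5. The mir-486 pair, at 76.3 to 115.0 in the vesicles, was thus above mir-133b and mir-1a and below mir-206 there.

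The entries with the most similar pattern were found from log2 values with 1 added, centred over the 6 libraries, as the smallest root mean square difference. For mir-486a it was mir-486b, at 0.123, followed outside the members by mir-378a (0.130), mir-501 (0.152) and mir-1198 (0.202). mir-378a, which lies in Ppargc1b and is known from muscle and fat, was at 17682.5 in BM, 2460.8 in OB and 3591.7 to 4808.7 in the vesicles. For mir-486b they were mir-378a (0.178), mir-16-2 (0.205) and mir-501 (0.215). For mir-451a the nearest were mir-144 (1.34), mir-451b (1.40), mir-338 (1.45) and mir-3969 (1.47), and for mir-144 they were mir-326 (1.04), mir-3969 (1.14) and mir-126a (1.14). No entry came as near to mir-451a or mir-144, whose values near 0 make such differences large, as those named for the mir-486 pair. The 6 points share only 4 conditions, and mir-451a and the mir-486 pair lay 2.24 and 2.28 apart.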

How the data were processed

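Using CLC Genomics Workbench 10.1.1, the authors collapsed identical reads and assigned them to miRBase, and deposited read counts per precursor entry without normalization. They also deposited normalized expression values, a signal made by converting each library to a total of 1000000 and scaling by trimmed means. In the file these are the count times 1 constant per library. The miRBase release, the mismatches allowed and the handling of multi-matching reads are not given in the sources used here.

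Levels are the deposited normalized expression values. FFSS-Myo-EVs were compared with Myo-EVs on the counts with edgeR 4.0.16 (R 4.3.3; TMM, quasi-likelihood test, Benjamini-Hochberg over all tested entries). Entries with a mean of at least 10 over the 4 vesicle libraries were tested, 354 in all, and the common dispersion was 0.0108. The prior degrees of freedom of this fit were infinite. Its p-values and standard errors therefore rest on a spread pooled over entries, not on that of each entry. The standard error is the log2 fold change divided by the root of its F statistic. The test was checked on simulated counts. OB and BM, with 1 library each, entered no test. Alternatives used limma 3.58.1 with a pseudocount of 1 and DESeq2 1.42.0. Python 3.11.15 and scipy 1.17.1 gave the intervals. Named entries are the members, up to 4 entries of each marker list by mean level, and the 3 most similar to each member. Outside this rule, mir-1a, mir-21a, mir-133a-2, mir-150, mir-185, mir-363 and mir-703 were chosen after their values were seen. The members and lists were chosen with earlier results of these data known.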

Additional observations from a re-analysis of the deposited data

How the results depend on the processing

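The members were highest in BM under every scaling and without each vesicle library, with the mir-486 pair counted as 2 entries or, summed, as 1 (then 3 of 3). Between FFSS-Myo-EVs and Myo-EVs, 108 entries were called, 43 higher and 65 lower, against 54 and 39 with the authors' scaling and 49 and 46 with library totals. The number called ranged from 37 to 120 when each library was left out and from 24 to 140 when this was done with no filter, a setting chosen after seeing the data. The lowest numbers came without the first or the second FFSS-Myo-EV library (40 and 37, or 38 and 24 with no filter). Of the members, 1 was called, mir-451a, and from 0 to 1 when each library was left out. With a mean of at least 100, 0 were called, since mir-451a was not tested. DESeq2 gave it no adjusted p, and without the first FFSS-Myo-EV library it fell below the filter. The alternatives counted next leave these settings out, and most of them keep the filter that mir-451a passed only through FFSS-Myo-EVs. Over 16 alternatives the adjusted p of mir-451a ranged from 1.78e-05 to 0.0845, and 14 were under 0.05. With the replicate number as a block (replicate block), 1 member and 110 entries were called. The difference between replicates 1 and 2 in Myo-EVs correlated with that in FFSS-Myo-EVs across entries (r = 0.21), but no source says what a number shares. The edgeR exact test and limma with a pseudocount of 10, both added after seeing the data, called 106 and 93 entries.

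The direction of the mir-486 pair, never called, was not stable, and the cause was not tested. For mir-486a (-0.04) it reversed with library totals (0.0313), the authors' scaling (0.0780), limma (0.0867, or 0.0776 with a pseudocount of 10), and with libraries left out (-0.30 to 0.26, or with no filter up to 0.221, and 0.0514 without the second FFSS-Myo-EV library). For mir-486b (0.04) it reversed with no filter (-0.00693), also without the second FFSS-Myo-EV library (-0.00767), and with libraries left out (-0.22 to 0.34). For mir-144 (1.19 with no filter), it held with libraries left out but ranged from 0.38 to 5.40. For mir-451b, at 4 counts, it ranged from -1.22 to 3.15 with libraries left out. Depth limits mir-144 and mir-451b most, with at most 7 counts in a vesicle library.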
